A study of Mus musculus with 10 samples.

Results

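The matrix metalloproteinases (MMPs), the ADAM and ADAMTS proteases, the ADAMTS-like proteins and the tissue inhibitors of metalloproteinases (TIMPs) were examined in skin of mice that overexpress Klk6, a secreted trypsin-like serine protease, and in skin of control littermates. Genes were taken by symbol (Mmp, Adam, Adamts, Adamtsl or Timp followed by a digit), which 84 genes matched, and 62 of them with at least 50 reads summed over all libraries were kept from the 20611 genes listed. They comprise 17 MMPs, 17 ADAMs, 19 ADAMTS proteases, 5 ADAMTS-like genes and 4 TIMPs. Enough reads for a test were present for 58 of the 62, among 14861 genes tested in all.

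The Klk6+ group was 5 mice carrying both a Tetos-Klk6 transgene, which encodes mouse Klk6 with a C-terminal Myc/His tag, and the K5-tTA driver. In this Tet-off design a bovine keratin 5 promoter drives the transactivator in keratinocytes of the epidermis and of certain other stratified epithelia, so the transgene is on when doxycycline is withheld. The WT group was 5 littermates with no transgene or with a lone, silent one. Breeding was under doxycycline, both lines were backcrossed to C57BL/6, and mice came from the F4 generation or later. Klk6+ mice were returned to doxycycline chow at 10 to 11 weeks, when they were close to ceasing to eat, and tissues were taken at 14 to 16 weeks. In each genotype mice 1 to 3 were male and mice 4 and 5 female. Messenger RNA of whole skin was sequenced with 1 library per mouse. The labels do not say which WT mice held a transgene or were fed doxycycline. Effects of Klk6, of poor feeding and of the return to doxycycline therefore cannot be told apart in the genotype comparison.

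Total read counts were 26521019 to 39796511 in Klk6+ libraries and 32798416 to 41970272 in WT libraries. Klk6 itself was at 10293 to 14773 CPM (read counts scaled to a fixed library size) in Klk6+ skins and 12.7 to 26.5 CPM in WT skins. Klk6+ mice 3 and 5 stood apart from the other Klk6+ mice on the second principal component of all genes, at -33.4 and -52.1 against 4.32 to 42.2. The summed level of 14 skeletal muscle markers was 4746 to 9742 CPM in Klk6+ skins and 59318 to 88314 CPM in WT skins, and all 14 fell. The 10 fibroblast markers, all lower, summed to 4734 to 9627 CPM in Klk6+ skins and 12479 to 41409.6 CPM in WT skins. Of 10 tested neutrophil markers 9 were higher and 1 lower, and of 10 macrophage and monocyte markers 1 was higher and 9 lower. All 8 endothelial and all 7 adipocyte markers fell, 6 of 7 mast cell markers rose, 5 of 6 T cell markers fell, 4 of 10 keratinocyte markers rose and 2 fell, and 3 of 9 hair follicle markers rose and 2 fell. For comparison, 37.7% of all genes tested were higher and 35.1% lower. In whole tissue, fewer cells of a type and less RNA per cell cannot be told apart, and the part of these shifts in any result on the proteases was not tested.

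All these enzymes are built on a zinc-dependent catalytic domain and are made as inactive precursors. MMPs cut collagens, gelatin, other matrix proteins and many soluble factors, either after secretion or from the cell surface. ADAMs are membrane proteins, several of which release the outer parts of growth factors, cytokines and receptors, while ADAMTS enzymes are secreted and cut proteoglycans, procollagens, von Willebrand factor or other matrix proteins. The ADAMTS-like proteins lack the protease domain and associate with the matrix, and TIMPs bind and block the active site of MMPs and, for some pairs, of ADAMs and ADAMTSs. In skin, fibroblasts, keratinocytes and leukocytes make different members of this set during repair and inflammation.

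Skin of Klk6+ mice had more RNA for the collagenases Mmp8 and Mmp13, for the aggrecanase Adamts4 and for Timp1, and less for Timp2, Timp3, Mmp2, Mmp3, Adamts2, Adamts5 and all 5 ADAMTS-like genes. Among the 58 tested, 15 were higher, 31 lower and 12 passed in neither direction at an adjusted p below 0.05 (edgeR quasi-likelihood test with sex as covariate, Benjamini-Hochberg over all 14861 genes; all adjusted p-values of single genes come from this test). Over all genes tested, 37.7% were called higher and 35.1% lower. A called difference of at least 2-fold was found for 12 members upward and 27 downward, against 15.7% and 20.5% of all genes. At 4-fold or more, 5 members were higher and 10 lower, where the shares over all genes were 5.79% and 8.07%. Per-mouse CPM of the genotypes did not overlap for 6 members that were higher and 27 that were lower, against 30.1% and 27.0% of all genes (57.0% in either direction). The median log2 fold change of the 58 was -0.98, compared with 0.04 over all genes. Their reads together made up 0.152% to 0.237% of all reads in Klk6+ libraries and 0.423% to 0.563% in WT libraries.

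**Figure D1:**
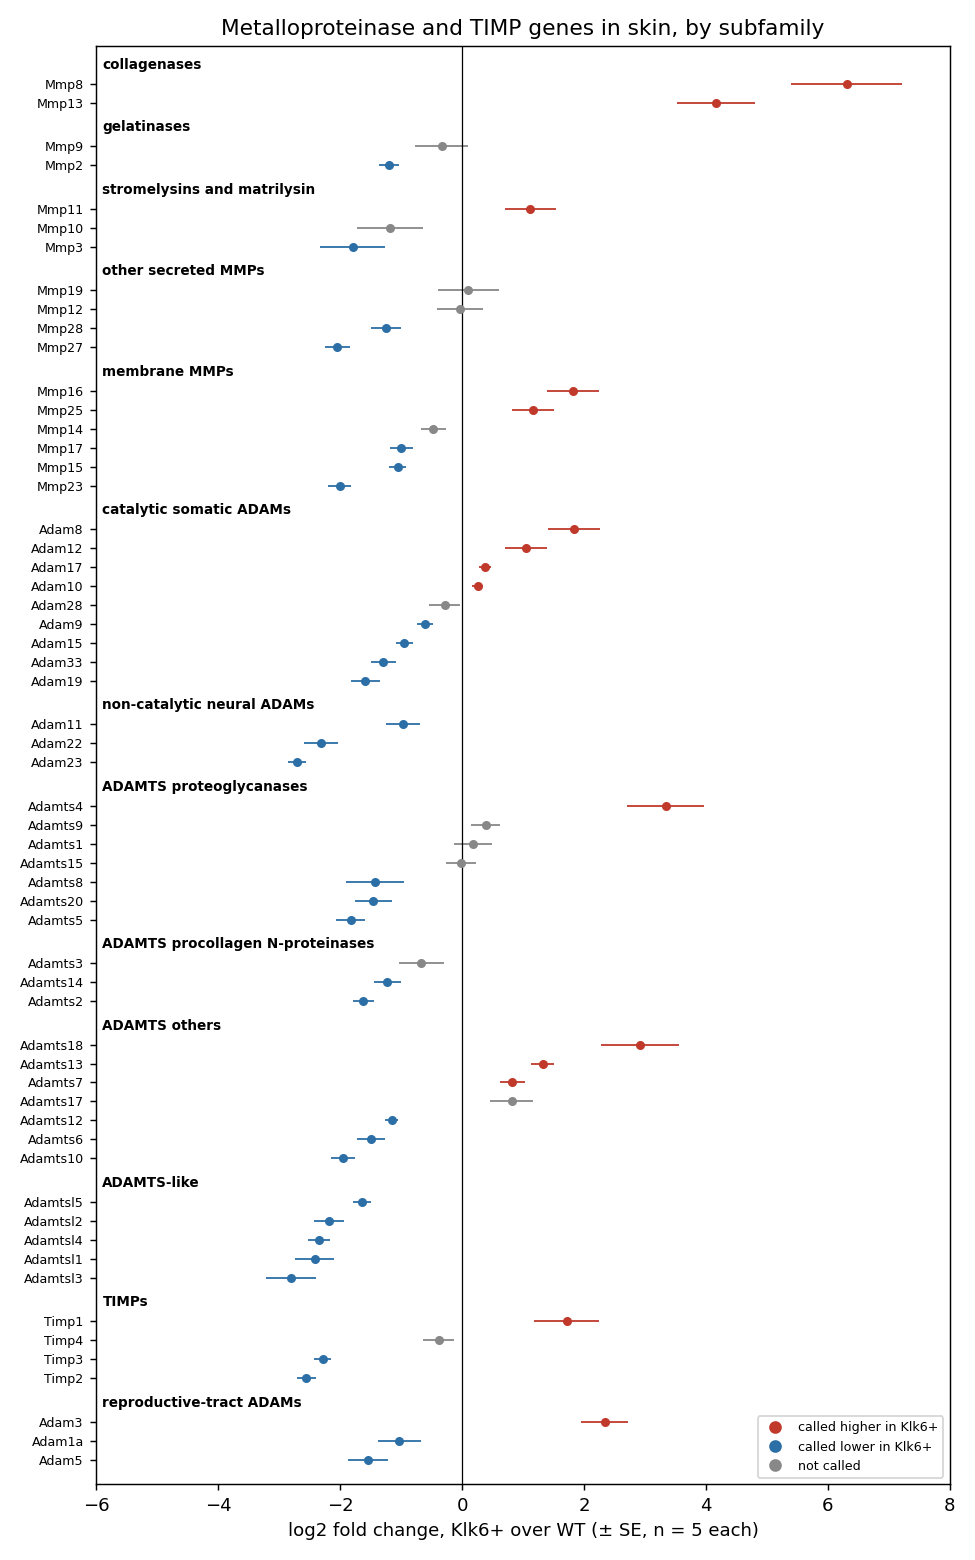
Log2 fold change, Klk6+ over WT, of the 58 tested genes, arranged by subfamily on the vertical axis; points are edgeR estimates, bars are ± 1 SE and colour marks the call at an adjusted p below 0.05. Mmp8 lies farthest to the right at 6.31 and Adamtsl3 farthest to the left at -2.81, and all 5 ADAMTS-like genes lie left of 0.

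Among the MMPs, 5 of 17 were higher and 7 lower, against 37.7% and 35.1% of all genes. Their median log2 fold change was -0.47. The collagenases open the triple helix of fibrillar collagen. Mmp8, the collagenase stored in neutrophil granules (chromosome 9, 7558456 to 7568485, plus strand, GRCm38), had 11.1, 6.45, 54.9, 13.1 and 47.4 CPM in Klk6+ skins 1 to 5, against 0.115, 1.06, 0.209, 0.146 and 0.119 CPM in WT skins 1 to 5. Mmp13, collagenase 3 (chromosome 9, 7272514 to 7283331, plus strand), had 3.32, 4.15, 15.3, 2.93 and 15.6 CPM in Klk6+ skins 1 to 5, against 0.207, 0.650, 0.478, 0.673 and 0.269 CPM in WT skins 1 to 5. Klk6+ mice 3 and 5 held the highest values of both genes, WT 2 was the highest WT library for Mmp8, and for neither gene did the genotypes overlap. Mmp8 was higher in Klk6+ skin (log2 fold change 6.31 ± 0.91 (SE), adjusted p = 0.000122), as was Mmp13 (log2 fold change 4.17 ± 0.65 (SE), adjusted p = 0.000204). Without Klk6+ 3 and 5 the log2 differences were 4.91 and 2.85 (adjusted p = 0.000291 and 0.000246), and without WT 2 that of Mmp8 was 7.49.

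Of 11 neutrophil markers in the tables, 5 had their 2 highest Klk6+ values in Klk6+ 3 and 5 (Csf3r, Cxcr2, Ngp, Retnlg and Itgam). Mpo, Elane, Camp and Ltf, genes of neutrophil granules, were highest in Klk6+ 4, at 4.04, 0.926, 6.85 and 8.21 CPM, S100a8 in Klk6+ 1 and S100a9 in Klk6+ 3. Retnlg, a transcript of mature neutrophils, was at 24.2, 10.2, 171, 19.1 and 119 CPM in Klk6+ skins and 0.528, 2.14, 0.598, 0.410 and 3.55 CPM in WT skins. The neutrophil markers other than the keratinocyte-expressed S100a8 and S100a9 summed to 104, 76.6, 341, 135 and 330.3 CPM in Klk6+ skins and 44.0, 104, 92.3, 245 and 190.3 CPM in WT skins, where Itgam, which macrophages share, carried most of the WT sum. The part of neutrophil RNA in the collagenase values was not tested.

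**Figure D2:**
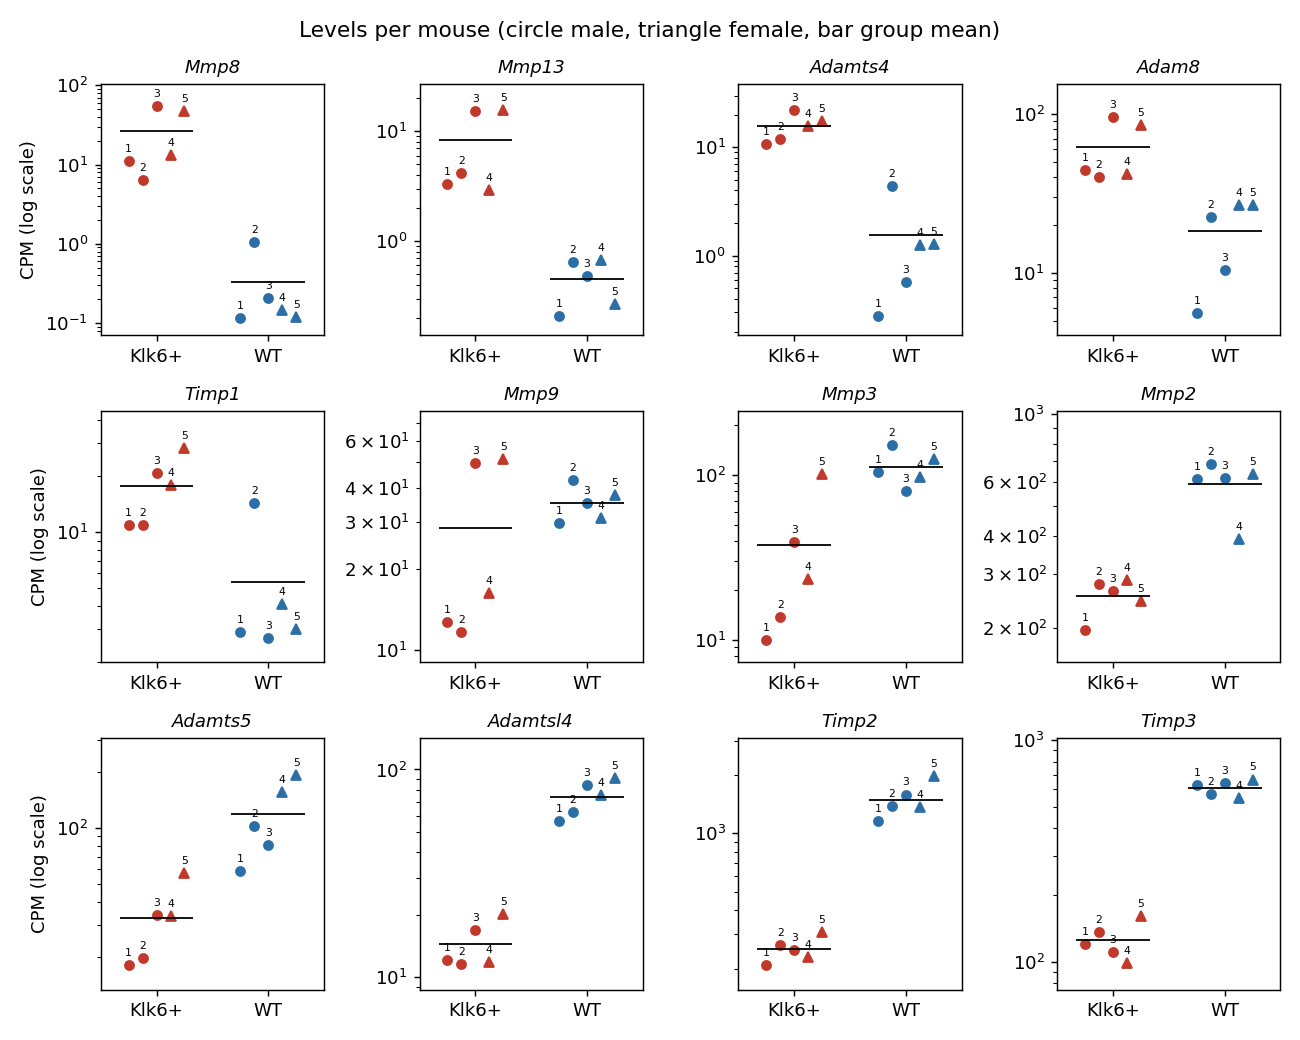
CPM on a log10 axis in each of the 5 Klk6+ and 5 WT skins for selected members, with the group mean as a bar; circles are males and triangles females. Mmp8 ranged from 6.45 to 54.9 CPM in Klk6+ skins and 0.115 to 1.06 CPM in WT skins, and Timp2 from 209 to 308 CPM in Klk6+ skins and 1149 to 1979 CPM in WT skins.

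Of the gelatinases, Mmp2 fell and Mmp9 did not pass. Mmp2, gelatinase A, a product mainly of fibroblasts that is switched on at the cell surface by Mmp14 together with Timp2, had 198, 279, 264, 289 and 246 CPM in Klk6+ skins 1 to 5, against 614, 687, 617, 391 and 639 CPM in WT skins 1 to 5. All Klk6+ values lay under the lowest WT value, which was that of WT 4 (log2 fold change -1.20 ± 0.16 (SE), adjusted p = 8.63e-05). Mmp9, gelatinase B, which neutrophils, macrophages and keratinocytes make, had 12.8, 11.6, 49.6, 16.3 and 51.3 CPM in Klk6+ skins, against 29.8, 42.9, 35.1, 31.0 and 37.7 CPM in WT skins. Klk6+ 3 and 5 were above every WT library and Klk6+ 1, 2 and 4 below every one, and the genotype difference did not pass (log2 fold change -0.33 ± 0.43 (SE), adjusted p = 0.502). With Klk6+ 3 and 5 left out, the log2 fold change of Mmp9 was -1.44. That omission was chosen after these values were seen and removed the only Klk6+ libraries above WT. The direction was thereby fixed, and the fit does not test it.

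Stromelysins cut proteoglycans and noncollagenous matrix and process other pro-MMPs. Mmp3, stromelysin 1, had 10.0, 13.8, 39.0, 23.3 and 101 CPM in Klk6+ skins 1 to 5, against 105, 153, 80.2, 97.6 and 126 CPM in WT skins 1 to 5. Klk6+ 5 reached the WT range and Klk6+ 1 and 2 lay far under it (log2 fold change -1.80 ± 0.53 (SE), adjusted p = 0.0112), and without Klk6+ 3 and 5 the log2 difference was -2.93. Mmp10, stromelysin 2, had 0.368, 0.871, 2.42, 0.772 and 3.8 CPM in Klk6+ skins, against 3.12, 4.86, 2.93, 2.98 and 4.001 CPM in WT skins, again with Klk6+ 3 and 5 highest within the genotype. Its difference missed the threshold (log2 fold change -1.18 ± 0.53 (SE), adjusted p = 0.068) and passed without either one of those libraries (adjusted p = 0.0362 and 0.00874). Without both the log2 fold change was -2.48. Leaving out both was chosen after the values were seen and removed the highest Klk6+ values, so that fit is no test of the difference. Mmp11, stromelysin 3, which furin activates inside the cell, had 38.5, 32.0, 27.3, 25.5 and 18.8 CPM in Klk6+ skins 1 to 5, against 8.43, 8.02, 7.24, 21.9 and 32.5 CPM in WT skins 1 to 5. The WT males 1 to 3 were at 7.24 to 8.43 CPM and the WT females 4 and 5 at 21.9 and 32.5 CPM, inside the Klk6+ range (log2 fold change 1.12 ± 0.42 (SE), adjusted p = 0.0322). Mmp11 lost its call when any 1 of Klk6+ 1, 2 and 3 or WT 1, 2 and 3 was left out (adjusted p up to 0.109) and in a fit without sex (adjusted p = 0.0853).

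Among the other secreted MMPs, Mmp27, a little-studied enzyme, had 1.59, 1.60, 2.21, 2.53 and 3.35 CPM in Klk6+ skins, against 8.08, 9.32, 10.2, 7.99 and 9.79 CPM in WT skins. Every Klk6+ skin was under every WT skin (log2 fold change -2.04 ± 0.20 (SE), adjusted p = 9.75e-06). Mmp28, epilysin, which keratinocytes make, was also separated between the genotypes, at 2.92, 5.68, 5.95, 3.83 and 6.37 CPM in Klk6+ skins, against 13.5, 9.51, 11.9, 14.5 and 9.26 CPM in WT skins (log2 fold change -1.25 ± 0.24 (SE), adjusted p = 0.000903). Mmp19, expressed in several skin cell types and the most abundant of this group per transcript length, had 12.5, 15.0, 37.1, 20.6 and 80.9 CPM in Klk6+ skins, against 10.9, 46.7, 21.2, 28.1 and 35.0 CPM in WT skins. Klk6+ 5 and WT 2 were the highest of their genotypes, the ranges overlapped and the difference did not pass (log2 fold change 0.10 ± 0.50 (SE), adjusted p = 0.86). Exons of Tmem198b on the other strand cover 22.3% of the exon bases of Mmp19, and the library kit did not mark strand, so reads of the overlap cannot be told apart. Mmp12, macrophage elastase, was at 1.74 to 3.77 CPM in Klk6+ skins and 1.16 to 7.26 CPM in WT skins and did not pass either (log2 fold change -0.04 ± 0.38 (SE), adjusted p = 0.925).

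Membrane-bound MMPs act at the cell surface. Mmp14, the activator of Mmp2 and a collagenase in its own right, was the third most abundant member per transcript length in Klk6+ skin, with 52.1 ± 5.98 FPKM in Klk6+ skins and 71.3 ± 20.9 FPKM in WT skins (SD, n = 5 each), where FPKM is the read level scaled to transcript length and library size. Its counts gave 116, 154, 153, 144 and 156 CPM in Klk6+ skins, against 169.6, 299, 152, 153 and 226 CPM in WT skins, with WT 2 and WT 5 highest and overlapping ranges, and the difference just missed the threshold (log2 fold change -0.47 ± 0.20 (SE), adjusted p = 0.0534), which it passed without Klk6+ 5, WT 1, WT 3 or WT 4. Mmp23, a small type II membrane enzyme, had 8.22, 6.69, 5.45, 8.58 and 4.32 CPM in Klk6+ skins, against 28.4, 29.3, 27.7, 21.5 and 27.0 CPM in WT skins (log2 fold change -2.003 ± 0.19 (SE), adjusted p = 6.68e-06). The Klk6+ values of Mmp23 were all under 10 CPM and the WT values all over 20 CPM. Mmp15 had 20.04, 19.8, 13.4, 18.7 and 17.5 CPM in Klk6+ skins, against 38.4, 43.8, 37.6, 38.7 and 27.8 CPM in WT skins (log2 fold change -1.06 ± 0.14 (SE), adjusted p = 7.93e-05). Mmp17, held by a lipid anchor, had 2.44, 2.54, 4.03, 3.18 and 2.98 CPM in Klk6+ skins, against 6.13, 6.81, 4.64, 7.40 and 5.29 CPM in WT skins (log2 fold change -0.99 ± 0.20 (SE), adjusted p = 0.00103). In both genes each Klk6+ skin was under each WT skin.

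The membrane MMPs that were higher were both of low abundance. Mmp16 had 2.98, 2.72, 1.34, 4.32 and 1.01 CPM in Klk6+ skins, against 1.06, 0.481, 0.867, 0.497 and 0.627 CPM in WT skins (log2 fold change 1.81 ± 0.43 (SE), adjusted p = 0.00313). Klk6+ 5, at 1.01 CPM, was within the WT range. Mmp25, a lipid-anchored enzyme of neutrophils, was at 1.51 to 3.99 CPM in Klk6+ skins and 0.836 to 1.54 CPM in WT skins, with Klk6+ 3 and 5 at 3.13 and 3.99 CPM (log2 fold change 1.16 ± 0.34 (SE), adjusted p = 0.0113). Without those libraries Mmp25 did not pass (adjusted p = 0.105), and the other Klk6+ skins, at 1.51 to 1.62 CPM, lay close to WT 2 at 1.54 CPM.

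Of the 62 genes, 6 lie in a run of MMP genes on chromosome 9 in which neighbours moved in opposite directions. From Mmp13 the start of Mmp12 is 71.9 kb away, that of Mmp3 173.3 kb, Mmp10 229.8 kb, Mmp8 285.9 kb and Mmp27 298.9 kb. Mmp8 rose and the neighbouring Mmp27 fell, with log2 fold changes of 6.31 ± 0.91 and -2.04 ± 0.20. Mmp13 at the one end rose, Mmp12 next to it was nearly level at -0.04 ± 0.38, and Mmp3 fell. Mmp1b, Mmp1a, Mmp20 and Mmp7 of the same run were below the read minimum.

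**Figure D3:**
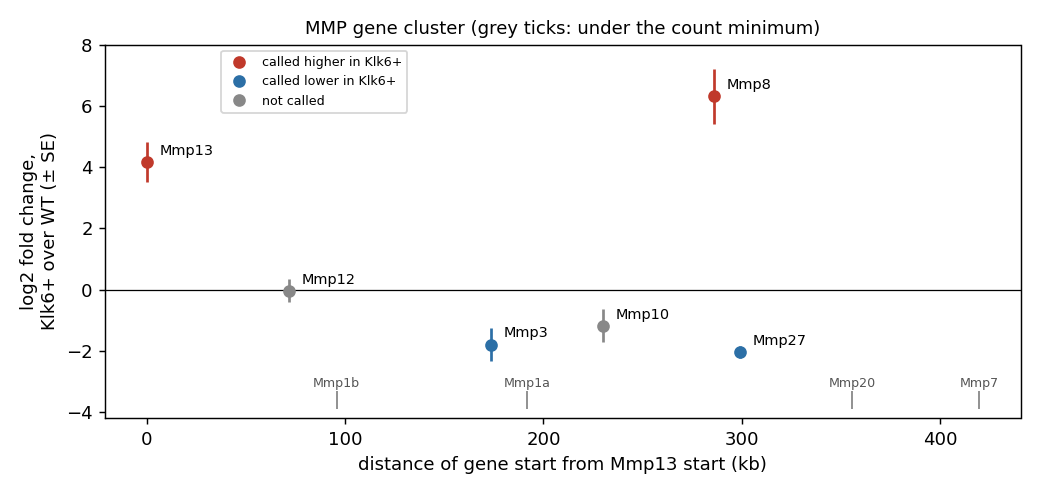
Log2 fold change, Klk6+ over WT (± 1 SE), of the MMP genes of the chromosome 9 run against their distance in kb from the start of Mmp13. Mmp8 at 285.9 kb is at 6.31 and Mmp27 at 298.9 kb at -2.04.

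Several MMP promoters carry a binding motif of AP-1, a transcription factor made of Fos and Jun proteins that is known to drive collagenase and stromelysin genes. The 100 bases before the annotated starts of the 6 genes are given because they place this motif, TGANTCA, in some of the neighbours and not in others. They are RefSeq promoter sequences (GRCm38.p6, plus strand), for Mmp13 chr9:7272414-7272513, for the downstream of 2 starts of Mmp12 chr9:7347274-7347373, for Mmp3 chr9:7445722-7445821, for Mmp10 chr9:7502242-7502341, for Mmp8 chr9:7558329-7558428 and for Mmp27 chr9:7571296-7571395, with the motif in capitals.
Mmp13: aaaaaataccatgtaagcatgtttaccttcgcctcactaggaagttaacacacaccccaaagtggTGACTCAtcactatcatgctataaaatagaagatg
Mmp12: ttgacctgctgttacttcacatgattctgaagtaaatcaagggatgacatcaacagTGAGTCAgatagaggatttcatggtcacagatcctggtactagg
Mmp3: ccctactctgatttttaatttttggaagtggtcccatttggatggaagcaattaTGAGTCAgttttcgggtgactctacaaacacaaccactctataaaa
Mmp10: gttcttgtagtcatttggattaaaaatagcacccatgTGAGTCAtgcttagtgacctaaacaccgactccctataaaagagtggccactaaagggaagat
Mmp8: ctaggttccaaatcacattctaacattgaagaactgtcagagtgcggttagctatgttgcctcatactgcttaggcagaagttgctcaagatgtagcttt
Mmp27: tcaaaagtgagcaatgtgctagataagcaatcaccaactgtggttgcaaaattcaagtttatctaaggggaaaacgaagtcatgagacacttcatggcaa
The motif begins 35 bases before the start in Mmp13, 44 in Mmp12, 46 in Mmp3 and 63 in Mmp10, and these letters do not occur in the windows shown for Mmp8 and Mmp27, nor in the 100 bases before the upstream start of Mmp12 (chr9:7344297-7344396). In windows of 300 bases (250 before to 50 after the start), which RefSeq gave for 39 of the 62 genes, TGANTCA on either strand was found in 6 genes, the others being Adam19 and Adam1b. That is 13.953% of their 43 promoters, against 7.808% of 32851 mouse promoters; a palindrome apart from its middle base, the motif reads alike on both strands. Of the genes holding it, Mmp13 rose, Mmp3 and Adam19 fell, Mmp12 and Mmp10 did not pass and Adam1b was not tested. A link between the motif and the RNA levels was not tested.

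Of the AP-1 genes themselves, 4 of 7 tested were higher and none passed as lower, against 37.7% and 35.1% of all genes. Junb was at 436 ± 116 CPM in Klk6+ skins and 123 ± 75.4 CPM in WT skins (SD, n = 5 each; log2 fold change 1.88 ± 0.33), and Fosl2 at 308 ± 56.9 CPM in Klk6+ skins and 145 ± 42.9 CPM in WT skins (1.11 ± 0.17). Jun differed by 0.49 ± 0.15. Fos (0.90 ± 0.60), Fosb (-1.48 ± 0.69) and Jund (-0.35 ± 0.25) did not pass. Fosl1 had 1.96, 6.65, 7.82, 1.14 and 5.89 CPM in Klk6+ skins and 0.0689, 3.39, 0.209, 0.0878 and 0.0597 CPM in WT skins, with WT 2 inside the Klk6+ range (log2 fold change 3.04 ± 1.05 (SE), adjusted p = 0.0235).

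The ADAMs divided into 5 higher and 9 lower of 15 tested, against 37.7% and 35.1% of all genes. Their median log2 fold change was -0.95. The principal sheddases moved little. Adam17, which frees TNF and EGF-receptor ligands, was at 92.1 to 132 CPM in Klk6+ skins and 79.4 to 95.5 CPM in WT skins (log2 fold change 0.37 ± 0.10 (SE), adjusted p = 0.00544). Adam10, which cuts Notch and cadherins, was at 121 to 159 CPM in Klk6+ skins and 103 to 138 CPM in WT skins (log2 fold change 0.26 ± 0.09 (SE), adjusted p = 0.0233). The ranges overlapped for both, and neither kept its call without Klk6+ 3 and 5 (adjusted p = 0.0975 and 0.278). Adam10 also lost its call when any 1 of Klk6+ 2 to 5 or WT 1, 2 and 4 was left out (adjusted p up to 0.142). Adam8, a protease of leukocytes, was chosen for mention after its values were seen, as was Adam12. It had 44.1, 40.0, 96.2, 41.8 and 85.5 CPM in Klk6+ skins, against 5.58, 22.5, 10.3, 26.7 and 26.7 CPM in WT skins, with every Klk6+ skin above every WT skin and Klk6+ 3 and 5 highest (log2 fold change 1.84 ± 0.42 (SE), adjusted p = 0.00276). Adam12, which growing and repairing mesenchyme expresses, had 21.6, 18.4, 7.45, 18.1 and 6.56 CPM in Klk6+ skins, against 5.19, 8.74, 5.80, 7.17 and 7.88 CPM in WT skins; here Klk6+ 3 and 5 were the low libraries and lay in the WT range (log2 fold change 1.04 ± 0.35 (SE), adjusted p = 0.0197). Adam12 did not pass without Klk6+ 4 or without WT 3 (adjusted p = 0.0929 and 0.0503).

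The other catalytic ADAMs of somatic tissue were lower or level. Adam9 had 66.1, 68.9, 90.1, 82.1 and 117 CPM in Klk6+ skins, against 92.4, 125, 124, 141 and 164 CPM in WT skins (log2 fold change -0.61 ± 0.14 (SE), adjusted p = 0.00255), and Klk6+ 5 exceeded WT 1. Adam15, the most abundant ADAM per transcript length in WT skin, had 58.8, 73.2, 80.4, 69.1 and 92.8 CPM in Klk6+ skins, against 103, 152, 124, 181 and 171 CPM in WT skins (log2 fold change -0.95 ± 0.14 (SE), adjusted p = 0.000157). Exons of an antisense gene cover 20.6% of its exon bases. Adam19, which trims neuregulins, had 9.47, 7.80, 13.1, 9.72 and 15.6 CPM in Klk6+ skins, against 20.1, 33.6, 23.1, 39.7 and 59.6 CPM in WT skins (log2 fold change -1.59 ± 0.24 (SE), adjusted p = 0.000156). Adam33, a mesenchymal member, had 2.27, 1.43, 1.21, 2.22 and 2.09 CPM in Klk6+ skins, against 4.57, 3.51, 4.58, 4.21 and 5.64 CPM in WT skins (log2 fold change -1.30 ± 0.21 (SE), adjusted p = 0.000244). Klk6+ values were below all WT values in Adam15, Adam19 and Adam33. Adam28, a member found in lymphocytes, was at 0.559 to 0.801 CPM in Klk6+ skins and 0.574 to 1.08 CPM in WT skins, and did not pass (log2 fold change -0.28 ± 0.25 (SE), adjusted p = 0.333).

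Adam11, Adam22 and Adam23 have no working catalytic site and serve in neurons as receptors of secreted LGI proteins. All 3 fell with no overlap of the genotypes, which held for 27.0% of all genes. Adam23 had 4.36, 4.81, 5.50, 5.74 and 7.64 CPM in Klk6+ skins, against 25.3, 33.5, 29.0, 42.9 and 57.9 CPM in WT skins (log2 fold change -2.71 ± 0.15 (SE), adjusted p = 4.25e-07). Adam22 had 1.79, 1.18, 1.11, 1.39 and 1.30 CPM in Klk6+ skins, against 5.90, 3.76, 7.74, 6.32 and 10.7 CPM in WT skins (log2 fold change -2.31 ± 0.27 (SE), adjusted p = 2.95e-05). For Adam11 the values were lower, at 0.992, 0.732, 0.737, 0.432 and 1.19 CPM in Klk6+ skins, against 1.47, 1.47, 1.23, 2.31 and 1.64 CPM in WT skins (log2 fold change -0.97 ± 0.28 (SE), adjusted p = 0.01).

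Of the ADAMs of the reproductive tract, 5 passed the read minimum. Adam3, a sperm surface protein, had 4.48, 3.55, 2.63, 3.15 and 1.08 CPM in Klk6+ skins, against 1.17, 0.963, 0.807, 0.176 and 0.239 CPM in WT skins (log2 fold change 2.34 ± 0.39 (SE), adjusted p = 0.000309), with Klk6+ 5 inside the WT range. The adjacent Adam5 was at 0.170 to 0.309 CPM in Klk6+ skins and 0.344 to 1.31 CPM in WT skins (log2 fold change -1.55 ± 0.33 (SE), adjusted p = 0.00166), so that this pair of neighbours on chromosome 8 also moved in opposite directions. Adam1a, at 0.283 to 0.557 CPM in Klk6+ skins and 0.359 to 1.204 CPM in WT skins, was called lower (log2 fold change -1.03 ± 0.35 (SE), adjusted p = 0.0223) but not without Klk6+ 1, WT 2 or WT 4 (adjusted p up to 0.061), and 63.7% of its exon bases lie in exons of Gm42878 on the same strand, and it has a close copy, Adam1b. Adam4 and Adam1b were not tested.

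In the ADAMTS family, 4 of 17 tested genes were higher and 8 lower, against 37.7% and 35.1% of all genes. Their median log2 fold change was -0.67. Adamts4 and Adamts5, the aggrecanases, went in opposite directions. Adamts4 (chromosome 1, 171250421 to 171260637, plus strand) had 10.8, 12.1, 22.2, 15.8 and 17.5 CPM in Klk6+ skins 1 to 5, against 0.276, 4.36, 0.5682, 1.26 and 1.28 CPM in WT skins 1 to 5. Every Klk6+ skin was above WT 2, the highest WT library (log2 fold change 3.34 ± 0.63 (SE), adjusted p = 0.000791), and without WT 2 the log2 difference was 4.41. Adamts5 had 18.1, 19.9, 34.0, 33.6 and 57.3 CPM in Klk6+ skins, against 58.8, 102, 81.0, 157 and 195 CPM in WT skins, and every Klk6+ skin was under every WT skin (log2 fold change -1.83 ± 0.23 (SE), adjusted p = 4.94e-05). Klk6+ 5 was the highest Klk6+ library for Adamts5 and WT 5 the highest WT library.

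Adamts1, a further proteoglycanase and a neighbour of Adamts5 on chromosome 16, was the most abundant of this group per transcript length and had 55.7, 117, 137, 62.6 and 116 CPM in Klk6+ skins, against 59.9, 142, 67.1, 72.0 and 89.8 CPM in WT skins. Its ranges overlapped widely (log2 fold change 0.18 ± 0.31 (SE), adjusted p = 0.611). Adamts20, needed in the mouse for the spread of pigment cells, had 1.22, 1.29, 0.474, 0.772 and 0.782 CPM in Klk6+ skins, against 1.98, 1.88, 3.08, 3.19 and 2.30 CPM in WT skins (log2 fold change -1.45 ± 0.30 (SE), adjusted p = 0.00152), and its genotypes did not overlap. Adamts8 had 1.64, 0.627, 0.474, 1.30 and 0.969 CPM in Klk6+ skins, against 1.54, 1.25, 1.44, 9.25 and 4.57 CPM in WT skins, and its WT spread came from the females 4 and 5 (log2 fold change -1.43 ± 0.48 (SE), adjusted p = 0.0209). Without Klk6+ 4 or Klk6+ 5 it did not pass (adjusted p = 0.0573 and 0.0514). Adamts15 at 6.34 to 25.6 CPM in Klk6+ skins and 5.88 to 27.2 CPM in WT skins and Adamts9 at 6.79 to 14.1 CPM in Klk6+ skins and 6.03 to 11.3 CPM in WT skins did not pass, with adjusted p = 0.963 and 0.161; Adamts9 passed without WT 2 (adjusted p = 0.0135).

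The procollagen N-proteinases remove the amino-terminal propeptide of fibrillar procollagens. Adamts2, whose loss causes fragile skin, had 92.9, 128, 106, 109.8 and 92.0 CPM in Klk6+ skins, against 406, 417, 270.2, 225 and 319.8 CPM in WT skins. All Klk6+ values were far under the lowest WT value, that of WT 4 (log2 fold change -1.62 ± 0.17 (SE), adjusted p = 1.23e-05). Adamts14 had 5.30, 4.98, 2.71, 5.22 and 3.43 CPM in Klk6+ skins, against 13.6, 11.0, 8.94, 9.39 and 7.97 CPM in WT skins, likewise without overlap (log2 fold change -1.23 ± 0.23 (SE), adjusted p = 0.000656). Adamts3 was under 1 CPM in every library, at 0.132 to 0.587 CPM in Klk6+ skins and 0.433 to 0.849 CPM in WT skins, and did not pass (log2 fold change -0.67 ± 0.37 (SE), adjusted p = 0.129).

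Adamts13, which cuts von Willebrand factor in blood, had 58.7, 64.1, 39.2, 39.7 and 28.4 CPM in Klk6+ skins, against 21.0, 18.9, 15.8, 20.2 and 14.0 CPM in WT skins. Each Klk6+ skin was above each WT skin (log2 fold change 1.32 ± 0.19 (SE), adjusted p = 0.000122). RNA of Vwf, the substrate, was lower (log2 fold change -0.47 ± 0.12). Vwf is also among the 8 endothelial markers, which all fell, with a median log2 fold change of -0.54. A link between Adamts13 and Vwf was not tested. Adamts10 and Adamts6, related enzymes tied to fibrillin microfibrils, both fell. For Adamts10 the counts gave 1.90, 1.81, 1.74, 2.75 and 1.75 CPM in Klk6+ skins, against 7.53, 5.32, 4.99, 11.4 and 11.0 CPM in WT skins (log2 fold change -1.95 ± 0.20 (SE), adjusted p = 1.26e-05). Adamts6 was scarcer, at 0.538, 0.348, 0.342, 0.370 and 0.522 CPM in Klk6+ skins, against 1.17, 0.891, 1.02, 1.32 and 1.67 CPM in WT skins (log2 fold change -1.49 ± 0.23 (SE), adjusted p = 0.000205). Adamts12 and Adamts7 are a pair known to cut cartilage oligomeric matrix protein, and they moved in opposite directions. Adamts12 had 11.1, 11.5, 12.4, 13.6 and 14.7 CPM in Klk6+ skins, against 22.4, 26.0, 23.3, 31.2 and 40.2 CPM in WT skins (log2 fold change -1.15 ± 0.11 (SE), adjusted p = 5.81e-06). Adamts7 was at 3.71 to 6.48 CPM in Klk6+ skins and 2.18 to 3.08 CPM in WT skins (log2 fold change 0.83 ± 0.20 (SE), adjusted p = 0.00342). In both the genotypes did not overlap.

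Adamts18 rose (log2 fold change 2.92 ± 0.64 (SE), adjusted p = 0.00197), but Klk6+ 3 and 5, at 0.869 and 0.298 CPM, were far under the other Klk6+ skins at 3.15 to 3.48 CPM, and WT skins were at 0.205 to 0.478 CPM. The hair follicle gene Shh was low in the same libraries, at 3.97, 3.34, 0.0790, 5.00 and 0 CPM in Klk6+ skins and 0.482, 0.241, 0.389, 0.117 and 0.179 CPM in WT skins. The hair sheath keratin gene Krt71 was at 161, 1531, 3.21, 304 and 3.17 CPM in Klk6+ skins and 71.3, 21.4, 12.3, 3.01 and 109.7 CPM in WT skins. Krt25, Krt27, Msx2 and Dsg4 of the same list were also lowest in Klk6+ 3 and 5 within the genotype. Lgr5 (8.08, 10.2, 3.92, 9.79 and 7.12 CPM in Klk6+ skins) and Sox9 (48.4, 43.3, 36.0, 65.8 and 36.8 CPM) were lower there by less. Krt15 went otherwise, at 262, 196, 139, 186 and 309 CPM in Klk6+ skins, and was lower than in WT skins (log2 fold change -3.11 ± 0.32). The part of hair follicle RNA in the values of Adamts18, Mmp16 and Adam12 was not tested. Adamts17 at 1.45 to 4.11 CPM in Klk6+ skins and 0.657 to 1.59 CPM in WT skins missed the threshold (log2 fold change 0.81 ± 0.35 (SE), adjusted p = 0.0588) and passed without WT 2 (adjusted p = 0.0439). Adamts16 and Adamts19 did not pass the filter on low counts and were not tested; Adamts16 had 4 reads in all Klk6+ libraries and 137 in all WT libraries, and Adamts19 had 14 and 120.

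All 5 ADAMTS-like genes were lower, each with no overlap between genotypes, which held for 27.0% of all genes. Their median log2 fold change was -2.35. Adamtsl4, which binds fibrillin 1 and in humans is needed to hold the lens in place, had 12.1, 11.6, 17.0, 11.8 and 20.1 CPM in Klk6+ skins 1 to 5, against 56.8, 62.7, 83.9, 75.4 and 91.3 CPM in WT skins 1 to 5 (log2 fold change -2.35 ± 0.18 (SE), adjusted p = 2.19e-06). Adamtsl5 had 14.1, 16.3, 15.4, 17.2 and 25.1 CPM in Klk6+ skins, against 57.4, 62.5, 51.6, 50.9 and 50.0 CPM in WT skins (log2 fold change -1.64 ± 0.15 (SE), adjusted p = 5.63e-06). Klk6+ 5 was the highest Klk6+ library for both. Adamtsl2, which binds the latent TGF-beta complex, had 0.623, 0.523, 1.16, 1.05 and 1.01 CPM in Klk6+ skins, against 3.44, 3.25, 3.29, 6.20 and 3.91 CPM in WT skins (log2 fold change -2.18 ± 0.24 (SE), adjusted p = 2.09e-05). Adamtsl1 had 4.59, 6.06, 8.63, 5.80 and 18.9 CPM in Klk6+ skins, against 26.8, 42.4, 32.6, 50.7 and 83.2 CPM in WT skins (log2 fold change -2.42 ± 0.32 (SE), adjusted p = 6.76e-05). For Adamtsl1, Klk6+ 5 stood above the other Klk6+ skins and WT 5 above the other WT skins. Adamtsl3 fell furthest of all 58, at 0.523 to 3.09 CPM in Klk6+ skins and 5.17 to 11.6 CPM in WT skins (log2 fold change -2.81 ± 0.41 (SE), adjusted p = 0.000142). Papln, the related matrix protein papilin, was lower too (log2 fold change -2.28 ± 0.18).

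The TIMPs fell as a pool, since the abundant Timp2 and Timp3 went down and the scarcer Timp1 went up. Timp2 (chromosome 11, 118301069 to 118355740, minus strand) had 209, 264, 249.1, 230.3 and 308 CPM in Klk6+ skins 1 to 5, against 1149, 1376, 1583, 1369 and 1979 CPM in WT skins 1 to 5. Timp3 (chromosome 10, 86300372 to 86349506, plus strand), which binds to the matrix and also blocks Adam17 and the aggrecanases, had 121, 136, 110.3, 98.7 and 161 CPM in Klk6+ skins 1 to 5, against 628, 571, 642, 548 and 665 CPM in WT skins 1 to 5. In both, every Klk6+ skin was several-fold under every WT skin: the log2 fold change of Timp2 was -2.56 ± 0.16 (SE, adjusted p = 6.84e-07) and that of Timp3 was -2.29 ± 0.14 (adjusted p = 7.38e-07). Timp1 (chromosome X, 20870166 to 20874735, plus strand), an inhibitor that cytokines and wounding induce, had 10.9, 10.9, 20.7, 17.8 and 28.4 CPM in Klk6+ skins 1 to 5, against 2.89, 14.4, 2.69, 4.10 and 3.02 CPM in WT skins 1 to 5. WT 2 lay within the Klk6+ range and the other WT skins did not exceed 4.10 CPM (log2 fold change 1.71 ± 0.54 (SE), adjusted p = 0.0153). Without WT 2 the difference was 2.49 and without Klk6+ 3 and 5 it was 1.27 and did not pass (adjusted p = 0.0825). Timp4 had 10.5, 10.2, 23.2, 11.8 and 14.1 CPM in Klk6+ skins, against 26.2, 20.2, 13.5, 16.7 and 15.2 CPM in WT skins, with overlapping ranges, and did not pass (log2 fold change -0.39 ± 0.25 (SE), adjusted p = 0.189), except without Klk6+ 3, its highest Klk6+ library (adjusted p = 0.0197). Timp1, Timp3 and Timp4 lie inside synapsin genes read from the other strand, and Syn3 exons cover 21.3% of the exon bases of Timp3.

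Per transcript length, Timp2 had 63.7 ± 9.84 FPKM in Klk6+ skins and 374 ± 77.7 FPKM in WT skins, the first rank among the 62 genes in WT skin and the second, behind Mmp2, in Klk6+ skin. Timp1 took rank 8 in Klk6+ skin and rank 21 in WT skin, with 22.5 ± 9.65 FPKM in Klk6+ skins and 6.68 ± 6.00 FPKM in WT skins. Summed over the 4 genes, TIMP levels were 120.3 ± 23.2 FPKM in Klk6+ skins and 510.3 ± 79.0 FPKM in WT skins (SD, n = 5 each), and MMP levels summed over 17 genes were 208 ± 47.9 FPKM in Klk6+ skins and 375 ± 61.7 FPKM in WT skins. FPKM is not on 1 scale between the genotypes. In CPM the TIMP sums were 409 ± 64.3 in Klk6+ skins and 2126 ± 339 in WT skins, and the MMP sums 606 ± 121 and 1081 ± 197. MMP over TIMP was 1.55, 1.64, 1.84, 1.81 and 1.75 in Klk6+ skins 1 to 5, against 0.839, 0.966, 0.647, 0.622 and 0.648 in WT skins 1 to 5. The lowest Klk6+ ratio exceeded the highest WT ratio, that of WT 2; the ratio adds up transcripts with no regard to which protein each TIMP blocks. Timp1 made up 18.2 ± 4.76% in Klk6+ skins and 1.37 ± 1.31% in WT skins of the TIMP sum, and Timp2 made up 53.3 ± 3.52% in Klk6+ skins and 72.8 ± 4.08% in WT skins.

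**Figure D4:**
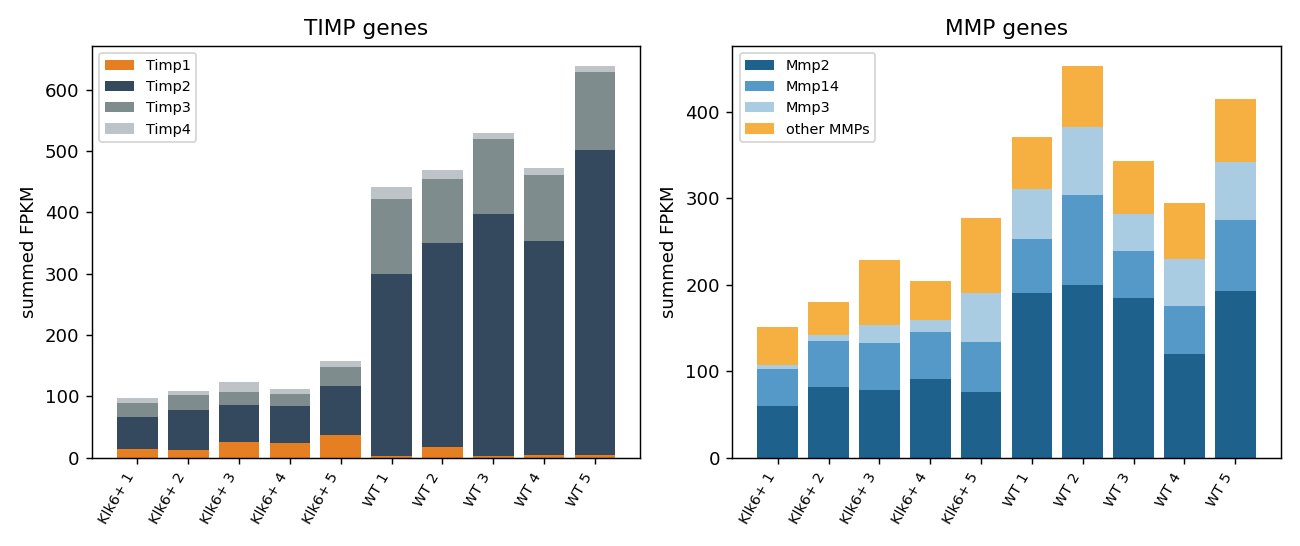
Stacked bars of summed FPKM per mouse for the TIMP genes (left) and the MMP genes (right), with colours for single genes. TIMP bars are 97.5 to 158 FPKM in Klk6+ skins and 441 to 639 FPKM in WT skins, and most of each WT bar is Timp2.

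Genes that act on or with these proteases were taken from lists by role. Of 14 tested regulators, 4 were higher and 5 lower, against 37.7% and 35.1% of all genes. Reck, a membrane-anchored inhibitor of MMPs, was at 14.3 ± 2.51 CPM in Klk6+ skins and 60.8 ± 16.2 CPM in WT skins (log2 fold change -2.07 ± 0.14 (SE), adjusted p = 1.22e-06). Furin, a convertase that removes the propeptide of many of these enzymes, rose by 1.09 ± 0.13 on the log2 scale. Of the other convertases listed, Pcsk6 fell (log2 fold change -1.44 ± 0.29) and Pcsk5 did not pass (-0.05 ± 0.25). Rhbdf2, the iRhom2 gene whose product brings Adam17 to the cell surface, rose by 0.87 ± 0.11. Of the related metalloproteinases and their cofactors, 1 of 6 tested was higher, Pappa (log2 fold change 0.55 ± 0.20), and 4 were lower. Pcolce and Pcolce2, enhancers of procollagen C-proteinase, were at 58.7 ± 11.2 CPM in Klk6+ skins and 236 ± 53.5 CPM in WT skins and at 18.7 ± 3.998 CPM in Klk6+ skins and 160.5 ± 26.6 CPM in WT skins, with log2 fold changes of -2.01 ± 0.19 and -3.10 ± 0.18. Bmp1, the C-proteinase, and its relative Tll1 fell by less, at -0.67 ± 0.11 and -1.02 ± 0.17.

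Of 14 proteins known to be shed by ADAMs, 10 had higher RNA and 3 lower, against 37.7% and 35.1% of all genes. Epgn, Areg and Hbegf, which are EGF-receptor ligands, had log2 fold changes of 6.52 ± 0.50, 4.42 ± 0.27 and 3.97 ± 0.34, with Epgn at 165 ± 81.2 CPM in Klk6+ skins and 2.02 ± 1.56 CPM in WT skins. Ereg and Tgfa, of the same family and named, like Btc, after their values were seen, were higher by 2.04 ± 0.34 and 2.47 ± 0.25. Btc, betacellulin, also an EGF-receptor ligand, fell, at -1.83 ± 0.18 (adjusted p = 9.07e-06). Il6ra, the interleukin 6 receptor chain, fell, at -2.32 ± 0.20. Of 13 tested matrix substrates, 10 were lower and 2 higher, against 35.1% and 37.7% of all genes. Among the 13, 4 are also fibroblast markers, and Vwf is an endothelial marker. Fn1, fibronectin, was at 121 ± 30.1 CPM in Klk6+ skins and 1286 ± 377 CPM in WT skins (log2 fold change -3.43 ± 0.21); Comp, Fbn1 and Dcn differed by -2.74 ± 0.43, -2.04 ± 0.33 and -1.61 ± 0.15.

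Klk6+ 3 and 5 stood together at an end of the Klk6+ values for some members, picked here after their values were seen. These libraries also stood apart on the second principal component of all genes, so this is not particular to the members. Klk6+ 3 and 5 had the highest values of the genotype for, among others, Mmp8, Mmp13, Mmp9, Mmp10, Mmp3, Mmp19, Mmp25, Adam8, Adamts4 and Timp1, and the lowest for Mmp16, Adamts18 and Adam12. They were also highest for Adam10 and Adam17 and for members that fell, such as Adam9, Adam15, Adam19, Adamts5, Adamtsl1, Adamtsl3 and Adamtsl4. Mmp15, Mmp23, Adamts13, Adamts14 and Adam3 were lowest in them too. For others, among them Mmp2, Mmp11, Mmp14, Timp2, Timp3, Adamts1 and Adamts2, these libraries did not share either end of the Klk6+ values. For Mmp9 these libraries had 49.6 and 51.3 CPM and the other Klk6+ skins 11.6 to 16.3 CPM. The mice do not share a sex, since Klk6+ 3 was male and Klk6+ 5 female, and no further label separates them. Among WT mice, WT 2 was highest for Mmp8, Mmp25, Adamts4, Timp1, Mmp19 and Mmp14.

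**Figure D5:**
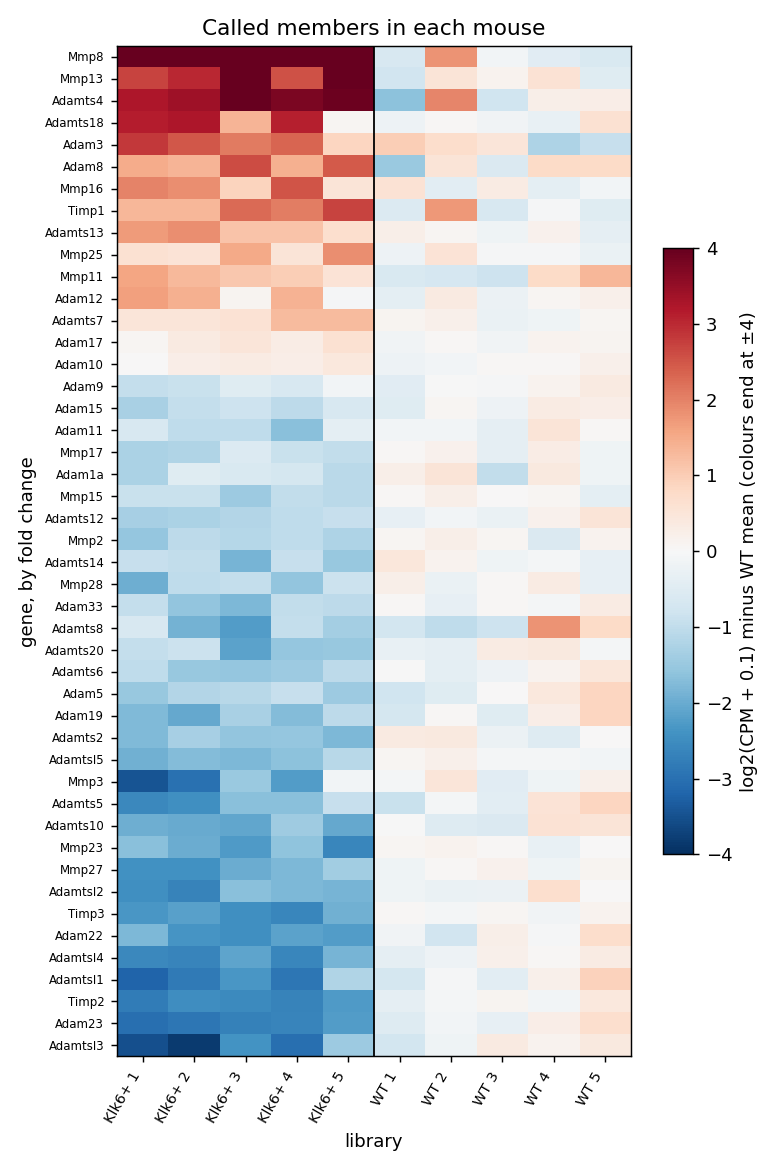
Log2(CPM + 0.1) of the 46 called members (rows, by fold change) in each mouse (columns, Klk6+ left and WT right), as the difference from the WT mean, with red above it, blue below it and colours ending at ±4. Mmp8 is deepest in Klk6+ skins, Adamts18 is pale in Klk6+ 5 (0.298 CPM), and WT 2 is red for Mmp8, Adamts4 and Timp1.

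Within males 39 members were called between the genotypes (64.4% of all genes), and within females 40 (59.6%). For no member did the female difference depart from the male one at an adjusted p below 0.05 in edgeR, which called 0 of 14861 genes for this interaction; at an unadjusted p below 0.05 it gave 5 members and 1410 genes. DESeq2 called 1 member, Mmp11, and 256 genes. Mmp11 had a log2 fold change of 2.05 ± 0.20 in males and -0.30 ± 0.24 in females, a difference (female minus male) of -2.34 ± 0.31 (adjusted p = 0.128 in edgeR and 3.83e-09 in DESeq2).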

How the data were processed

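RNA from whole skin of 10 mice was sequenced as polyA-selected, unstranded libraries, per the labels' protocols. For each mouse the authors deposited a gene table of symbols, whole-number read counts and FPKM. The counts are not normalized, as deposited by the authors. FPKM values were scaled by the authors to transcript length and library size. Their sums differed between genotypes (610304 to 655518 in Klk6+ libraries, 490691 to 519399 in WT libraries). FPKM therefore served mainly for levels between genes and ratios within a library. Where FPKM is printed for both genotypes, the scales are not equal. TopHat2, HTSeq, SAMtools and Cufflinks (2.2.1) are named in the submitters' processing notes. Their annotation and their handling of reads shared by close copies are not stated there.

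The tests on counts used edgeR 4.0.16 (R 4.3.3), with filterByExpr (minimum count 10), trimmed-mean scaling, and quasi-likelihood F tests of genotype with sex as covariate, adjusted by Benjamini-Hochberg over 14861 genes and called at 0.05. A model with 4 genotype-by-sex means gave the effects within sexes and the interaction. A count was worth 0.0230 to 0.0373 CPM. Alternatives used other scalings and filters, DESeq2 1.42.0, limma 3.58.1 on counts and on log2 of FPKM plus 0.1 or 1, and omission of each mouse; omission of Klk6+ 3 and 5 together was added after seeing the data. The edgeR, DESeq2 and limma fits on counts were tried on simulated counts in which a small share of genes changed and all genes had a common spread. Most genes tested were called in the real data, so the simulation does not match that setting. The limma fits on FPKM were not tried on simulated data. The numbers 1 to 5 were assigned within each genotype in accession order and pair no mice, the labels name no litters, p-values measure the spread between mice, and no 2 libraries matched within sampling noise.

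Members, lists and tests were chosen with earlier results of these data known. Named with per-mouse values were all TIMPs and, per subfamily, up to 4 called genes of smallest p at 1 CPM or more and the most abundant gene by FPKM. Per-mouse values of Mmp9, Mmp10, Adam8 and Adam12 were given outside that rule. Other genes were named with ranges. Positions are GENCODE M21 on GRCm38 (all 84 symbols matched) and promoters RefSeq GRCm38.p6. Protein sequences were not used here. The marker Ly6g of neutrophils and Trac and Trdc of T cells were not matched in the tables.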

Additional observations from a re-analysis of the deposited data

Results flagged for a closer look

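In groups of 5 mice, the highest or lowest value was tested for its gap to the nearest other value with Dixon's criterion. It marked 10 of 124 groups. About 1 in 20, or 6.2, would be marked if values were normally distributed and groups independent. The values were CPM not on a log scale and the groups come from the same libraries, so 6.2 is only a guide. WT 2 accounted for 4 of them, as the high value of Mmp8 (1.06 CPM, the next 0.209), Mmp25 (1.54, next 0.995), Adamts4 (4.36, next 1.28) and Timp1 (14.4, next 4.10). WT 4 was low for Mmp2 (391 CPM) and high for Adamtsl2 (6.20 CPM). Klk6+ 4 was high for Adamts10 (2.75 CPM) and Adamts17 (4.11 CPM), and Klk6+ 5 for Adamtsl1 (18.9 CPM) and Adamtsl5 (25.1 CPM).

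Genes below the read minimum were also searched for any with every Klk6+ CPM above every WT CPM. Mmp1b and Adam18 met this rule. The rule fixed the direction, and the fold and limit below come from the same counts, so they do not test it. Mmp1b, a mouse counterpart of interstitial collagenase with the close copy Mmp1a, had 37 reads summed over the Klk6+ libraries, present in all 5, and 0 in the WT libraries. Klk6+ 5 held 18 of the 37. With the WT group set at a floor of 3 reads, the fold of Mmp1b in Klk6+ skin was 14.2, and 8.78 with Klk6+ 5 left out. These folds take no account of error in the Klk6+ counts. The exact 95% lower limit of the ratio over all 5 Klk6+ libraries, for counting error only, was 11.0. Mmp12 exons on the other strand cover 10.8% of its exon bases. Adam18, a sperm protein next to Adam3 on chromosome 8, had 18 reads over the Klk6+ libraries and 0 over the WT libraries. The opposite direction was not searched, and Adam32 had 3 reads over the Klk6+ libraries and 12 over the WT libraries.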

How the results depend on the processing

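Under 22 alternatives (21 for Adamts6, Adam1a, Adam5 and Adamts18, which a filter of 1 CPM in 5 libraries left untested, and for Timp1, to which DESeq2 gave no p), 38 of the 46 called members kept their direction and call, 8 lost the call at least once and none reversed. Adam10 lost it under 12 (adjusted p up to 0.278) and Mmp11 under 7 (up to 0.109); the others were Adam17, Mmp25, Timp1, Adamts8, Adam1a and Adam12. Of the 12 others, 6 gained a call, Mmp14 under 11 alternatives, Mmp10 under 8, Adamts17 under 4, Timp4 under 2 and Mmp9 and Adamts9 under 1 each. With 1 mouse left out, 13 to 15 members were higher and 30 to 33 lower, and of these the ADAMs called higher were 3 to 5 (3 without Klk6+ 4) in place of 5. Without Klk6+ 3 and 5 (chosen after seeing the data) the ADAMs called higher were 3 and the TIMPs called higher 0, as with DESeq2 (0, main 1). DESeq2 called 1 member for the interaction, edgeR 0.

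Signs changed for uncalled members: with 1 mouse left out, Mmp19 gave -0.45 to 0.55, Adamts1 -0.0270 to 0.44, Mmp12 -0.23 to 0.34 and Adamts15 -0.17 to 0.11. Without Klk6+ 3 and 5 Mmp19 gave -0.88 and Adamts1 -0.22. Mmp12 gave 0.0023 by limma on FPKM plus 0.1, and Adamts15 0.00093 with no count filter. The cause was not tested. No paired analysis was possible because the labels give each mouse its own ID, and the numbers 1 to 5 only name mice within a genotype. Genes near 1 CPM or below rest on few reads per library.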

Other observations

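Of the 22 genes below the read minimum, 12 had no read in any library, among them the matrilysin Mmp7 and testis genes such as Adam24, Adam26a and Adam34. Mmp1a had 7 reads over the Klk6+ libraries and 1 over the WT libraries, Mmp24 had 28 and 13, and Mmp20, of tooth enamel, had 2 and 1. Adam4, which was not tested, had 35 reads over the Klk6+ libraries and 21 over the WT libraries, and Adam1b had 15 and 38.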
